A study of Mus musculus with 12 samples.

Results

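The genes described here are 34 targets of the hypoxia-inducible factors (HIFs) outside glycolysis, followed across 12 RNA-seq libraries labelled with mouse liver tissue and the Hepa1-6 line. They were taken from a fixed list of 34 symbols, which was chosen with earlier results of these data known. Shares of the list given beside those of all tested genes are therefore descriptions and not tests. The condition for a listed gene was 10 or more counts in 3 or more of the 12 libraries, without regard to group. All 34 listed genes were in the count table and met it, among 21878 genes in the table, and all 34 were among the 14330 genes tested. In 33 of them the count reached 10 in all 12 libraries, and Stc2 reached it in 7. The 4 groups held 3 libraries each and shared the same line and tissue label. The untreated group received no agent, the IFNa group received mouse interferon alpha (mIFNalpha in the labels), the antiPD1 group received an antibody against PD-1, and the combination group received both agents. Hepa1-6 is a hepatoma line of mouse origin, so each group rests on 1 line. The series title speaks of liver tumour and its design text of treated cells, and no label says which of the 2, cultured cells or tumours grown in mice, gave the RNA. The dose, schedule, host strain, age and sex, and whether each library came from its own animal, are not stated in the labels. The p-values therefore measure the spread between these libraries, which may be technical.

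HIFs are transcription factors made of an oxygen-sensitive alpha subunit (Hif1a or Epas1) and the stable partner Arnt. With oxygen present, prolyl hydroxylases of the Egln family mark the alpha subunit for destruction by the Vhl ubiquitin ligase. In low oxygen it persists, binds short DNA elements with the core ACGTG or GCGTG, and switches on genes for blood vessel growth, collagen maturation, pH balance, fuel storage and removal of mitochondria. Solid liver tumours are a known setting of this response. The genes are ordered below by what their products do.

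Library totals lay between 31318000 and 38536700 counts, with 15678 to 16377 genes detected per library. Levels are given as CPM, counts scaled to a common library total with TMM factors, and 3 counts corresponded to 0.0786 to 0.102 CPM. Replicate 3 of antiPD1 stood apart, with the highest value of the 12 libraries for 25.6% of all tested genes and the lowest for 22.6%. For replicate 1 of IFNa these shares were 16.3% and 19.2%. Markers of several cell types were present in every library. Hepatoma markers (9 of the 10 listed genes were in the table) summed to 31770 to 36250 CPM in untreated, 28690 to 35100 in IFNa, 20850 to 37200 in antiPD1 and 20810 to 28840 in combination libraries. Macrophage markers (10 genes) summed to 353 to 621, 397 to 663, 1146 to 4682 and 1516 to 1920 CPM in the same order, and fibroblast markers (10 genes) to 77.3 to 241, 236 to 258, 249 to 562 and 300.3 to 389 CPM. Endothelial markers (9 genes) summed to 123 to 245, 188 to 282, 114 to 460.2 and 222 to 315 CPM. Leukocyte and T cell markers (9 genes) summed to 54.3 to 73.0, 32.7 to 89.0, 113.5 to 475 and 190.0 to 216 CPM, neutrophil markers (7 genes) to 33.2 to 55.1, 58.9 to 81.5, 114 to 217 and 142 to 233 CPM, and 4 Y-linked genes to 9.95 to 21.8, 15.4 to 27.3, 26.2 to 94.4 and 30.6 to 52.0 CPM. Adult hepatocyte markers (16 genes) summed to 442 to 799.6, 594 to 2282, 721 to 5835 and 714 to 3103 CPM. Against untreated libraries all 9 leukocyte and T cell, all 10 macrophage and all 4 Y-linked genes rose with antiPD1, and 4, 6 and 1 of them rose with the combination. For neutrophil markers the order was reversed, with 4 of 7 risen with antiPD1 and 6 of 7 with the combination. Of 9 tested fibroblast markers 4 and 1 rose, of 16 adult hepatocyte markers 1 and 1, and of 9 endothelial markers 0 and 0. Over all tested genes, 9.76% rose with antiPD1 and 7.58% with the combination. With untreated replicate 1 or 2 left out, only 5 and 6 genes of the whole table passed for antiPD1 against untreated. Most of the marker calls with antiPD1 were therefore lost there. In such bulk libraries, fewer cells of a type and less RNA per cell cannot be told apart.

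Per unit of gene length, by the deposited FPKM, the 34 genes spanned a wide range in untreated libraries. The highest levels belonged to Cited2 (255 ± 105 FPKM, SD, n = 3), which encodes a regulator that competes with HIF for its coactivator, and Bnip3 (241 ± 81.4), a mitophagy receptor. Hilpda (179.8 ± 62.9), Ndrg1 (149.7 ± 45.2), Ddit4 (141 ± 74.6), Vegfa (101 ± 21.1) and Egln3 (95.1 ± 14.2) followed. Given these SDs, the order within these 7 genes is not resolved. At the low end stood Stc2 (0.042 ± 0.001), Bhlhe41 (0.18 ± 0.18), Tmem45a (0.22 ± 0.23), Car12 (0.51 ± 0.22) and Plod2 (0.60 ± 0.36).

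Promoter windows of 250 bases before the annotated start (RefSeq, build GRCm38.p6) were found for 27 of the 34 genes. Bnip3l, Loxl2, Lox, Plod2, Bhlhe40, Angptl4 and Ndrg1 had no entry. The HIF core letters ACGTG, read on both strands, occurred in 16 of these 27 genes (59.3%), against 18.5% of the 27025 genes with a window. ACGTG or GCGTG occurred in 23 of 27 (85.2%), against 41.5%. The genes were listed because they are known HIF targets, so this is a description of the list, and a match is a run of letters and not a shown binding site. The windows of 4 genes whose levels moved, and a 30-base stretch of another, are printed 5′ to 3′ on the gene's strand, with capitals marking ACGTG or GCGTG on either strand (CACGT and CACGC are the reverse strand readings).
Car9, chr4:43506996-43507025, plus strand: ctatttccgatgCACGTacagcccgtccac
Bnip3, chr7:138909507-138909756, minus strand: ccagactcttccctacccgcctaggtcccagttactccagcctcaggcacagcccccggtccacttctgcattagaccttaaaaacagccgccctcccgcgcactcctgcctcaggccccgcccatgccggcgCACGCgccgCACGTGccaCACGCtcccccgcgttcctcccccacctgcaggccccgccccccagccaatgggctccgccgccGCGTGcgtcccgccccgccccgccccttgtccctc
Cited2, chr10:17722978-17723227, plus strand: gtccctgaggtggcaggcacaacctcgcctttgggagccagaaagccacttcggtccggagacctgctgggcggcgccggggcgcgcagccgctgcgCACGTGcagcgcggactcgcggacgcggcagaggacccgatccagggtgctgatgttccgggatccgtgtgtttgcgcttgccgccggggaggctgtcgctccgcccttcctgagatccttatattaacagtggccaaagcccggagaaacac
P4ha1, chr10:59323046-59323295, plus strand: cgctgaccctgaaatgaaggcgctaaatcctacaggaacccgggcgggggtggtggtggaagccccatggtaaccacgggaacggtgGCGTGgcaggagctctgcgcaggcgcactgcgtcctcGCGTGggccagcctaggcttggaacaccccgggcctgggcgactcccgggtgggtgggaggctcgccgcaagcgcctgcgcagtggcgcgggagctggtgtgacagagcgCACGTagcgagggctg
Egln3, chr12:54203875-54204124, minus strand: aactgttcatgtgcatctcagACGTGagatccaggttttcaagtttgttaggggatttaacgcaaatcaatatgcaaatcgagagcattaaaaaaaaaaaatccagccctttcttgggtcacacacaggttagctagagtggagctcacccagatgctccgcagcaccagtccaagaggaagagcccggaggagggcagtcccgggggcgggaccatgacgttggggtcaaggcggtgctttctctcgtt
Bnip3 and Cited2 each hold the palindrome CACGTG, which counts once on each strand. Bnip3 also holds 3 GCGTG runs and P4ha1 holds 2, beside 1 ACGTG in P4ha1. Car9 and Egln3 hold 1 ACGTG each in the stretch shown. The Car9 stretch lies before the RefSeq start, but GENCODE M21 starts the gene further upstream, at 43506966. By that annotation the stretch lies inside the gene. Of these 5 genes, Car9, Bnip3, Cited2 and Egln3 fell in the combination group and P4ha1 rose in the antiPD1 group, as described next. All 5 hold ACGTG, which is not so for every gene that moved. Car12, which fell, had neither core in its window, and Stc2, which rose, had GCGTG only. Vegfa, Hilpda, Mxi1 and Bhlhe41 held ACGTG in a window that is not printed.

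**Figure D1:**
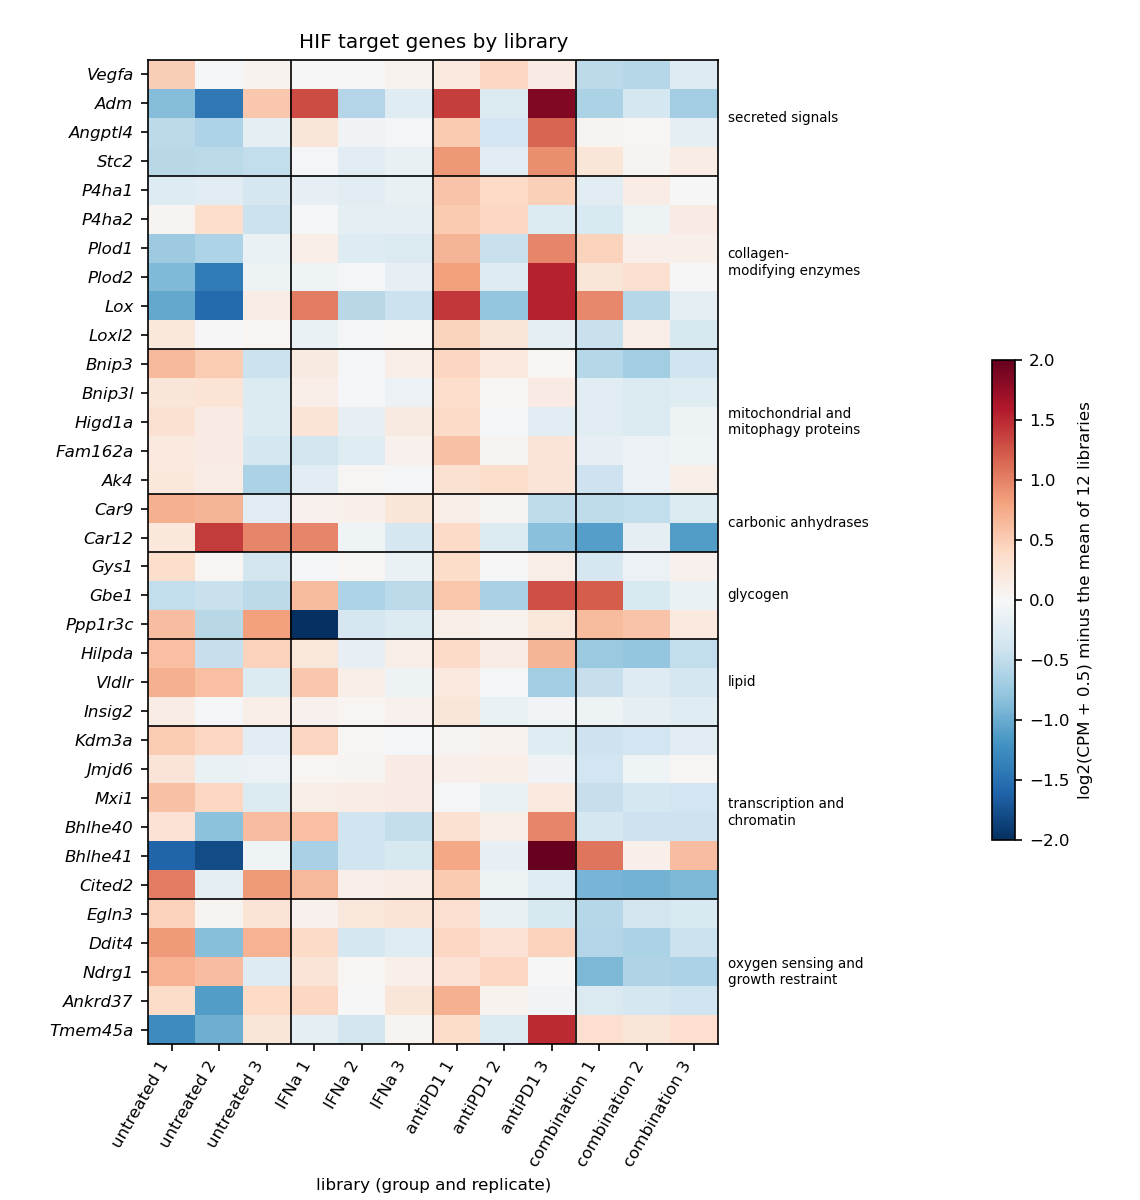
Levels of the 34 genes (rows, by role) in the 12 libraries (columns), as log2(CPM + 0.5) minus the gene's mean over the 12 libraries. Red is above and blue below that mean, with the colour scale ending at 2 in both directions. Vegfa, Ndrg1, Bnip3 and Cited2 are blue in the 3 combination libraries, and antiPD1 replicates 1 and 3 hold the highest value of 9 and 11 genes.

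Against untreated libraries, the combination group had lower levels of 9 of the 34 genes and a higher level of 1. The 9 that fell were Vegfa, Ndrg1, Egln3, Bnip3, Car9, Car12, Hilpda, Mxi1 and Cited2, with log2 fold changes from -0.63 (Vegfa) to -2.13 (Car12), and Stc2 rose. The 9 make up 26.5% of the 34, where 5% of all tested genes fell and 7.58% rose (12.6% called in either direction, edgeR quasi-likelihood F test, Benjamini-Hochberg adjusted p under 0.05). A log2 fold change below 0 was seen for 24 of the 34 (70.6%) and 51.2% of all tested genes, and an unadjusted p under 0.05 for 18 (52.9%) and 31.8%. The median log2 fold change was -0.27 over the 34 genes and -0.01 over all tested genes. By the separate criterion that the 3 combination values all lay below the 3 untreated values, 9 of 34 (26.5%) qualified, close to the background of 24.8%, and in 6 (17.6%, background 24.7%) they all lay above. The 9 that qualified in this way were not the same set, since Insig2 was among them and Bnip3 was not. Leaving out single libraries mattered for the count. Without untreated replicate 1, or without any 1 of the 3 combination libraries, 0 of the 34 genes passed, while calls over all genes dropped from 1803 to between 33 and 207. Without untreated replicate 2 the count was 3, without IFNa replicate 2 it was 5, and without untreated replicate 3 it was 12. None of the log2 fold changes of these genes changed sign.

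Of the secreted signals, Vegfa, the main growth factor for blood vessels (chr17:46016993-46032369, mm10), stood at 725, 504 and 539.9 CPM in the 3 untreated libraries. It stood at 513, 511 and 544 CPM in IFNa, 591, 684 and 579 in antiPD1, and 359, 347 and 433 in combination libraries. Every combination value lay below every value of the other 3 groups, and the untreated values overlapped those of IFNa and antiPD1. The log2 fold change against untreated was -0.63 ± 0.14 (SE, adjusted p = 0.0240). Stc2, a secreted glycoprotein linked to calcium balance, was near the counting limit, with 3, 3 and 4 counts in untreated, 12, 9 and 11 in IFNa, 39, 9 and 36 in antiPD1 and 19, 14 and 17 in combination libraries. The ratio of summed counts, scaled by library size, was 4.39 for combination against untreated (95% exact interval 2.20 to 9.70, counting error only), with an adjusted p of 0.0424. Its fitted log2 fold change was 2.1, and counting error limits that value at this depth.

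The 2 carbonic anhydrases both fell. Car9, a membrane enzyme that exports acid equivalents and a standard hypoxia marker, stood at 76.5, 74.5 and 39.6 CPM in untreated, 49.1, 50.0 and 55.1 in IFNa, 51.1, 48.0 and 32.4 in antiPD1 and 32.5, 33.0 and 38.2 in combination libraries. The combination values lay below all untreated values, but only just below the third one, and overlapped those of antiPD1 (log2 fold change -0.88 ± 0.24, adjusted p = 0.0377). Car12, its low-expressed relative, had 68, 168 and 135 counts in untreated, 137, 60 and 52 in IFNa, 91, 52 and 25 in antiPD1 and 21, 54 and 21 in combination libraries. Its log2 fold change was -2.13 ± 0.62 (adjusted p = 0.0464), and the IFNa and antiPD1 libraries overlapped both untreated and combination. The call of Car12 was kept in 3 of the 12 fits that left out a library, with log2 fold changes from -2.77 (without combination replicate 2) to -1.80 (without untreated replicate 2), and was lost with no filter on low counts.

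Among the 5 mitochondrial proteins, Bnip3 was the 1 that passed. It stood at 560.2, 511 and 267 CPM in untreated, 405, 349 and 394 in IFNa, 485, 409.9 and 367 in antiPD1 and 242, 222 and 272 in combination libraries. Combination values lay below all IFNa and antiPD1 values, and overlapped untreated only through its replicate 3 (log2 fold change -0.86 ± 0.23, adjusted p = 0.0364). Its paralogue Bnip3l, also a mitophagy receptor, stood at 146, 149 and 102 CPM in untreated and 105, 101 and 103 in combination libraries, and did not pass. Higd1a, Fam162a and Ak4, which act in respiration, cell death and nucleotide balance, did not pass in any comparison.

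Of the 3 lipid genes, Hilpda, which blocks the breakdown of stored fat, fell. It stood at 228, 109.6 and 207 CPM in untreated, 176, 134 and 165 in IFNa, 196, 168 and 242 in antiPD1 and 89.7, 88.3 and 107 in combination libraries. The combination values lay below those of every other library (log2 fold change -0.93 ± 0.24, adjusted p = 0.0343). The lipoprotein receptor Vldlr and the sterol sensor Insig2 did not pass, although all 3 combination values of Insig2 lay below the untreated ones.

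In the transcription group, Cited2 had the smallest p of the 34 genes in this comparison. Its levels were 606, 259.7 and 539 CPM in untreated, 465, 318 and 331 in IFNa, 427, 275 and 250.4 in antiPD1 and 156, 154 and 159 in combination libraries. The 3 combination libraries were nearly equal and lay below all others (log2 fold change -1.58 ± 0.30, adjusted p = 0.0169). Mxi1, an antagonist of Myc, stood at 91.3, 80.5 and 50.1 CPM in untreated, 65.4, 67.2 and 67.5 in IFNa, 59.2, 55.1 and 69.3 in antiPD1 and 44.0, 47.5 and 46.1 in combination libraries. It too was lowest in the 3 combination libraries (-0.69 ± 0.18, adjusted p = 0.0351). Kdm3a, a histone demethylase, stood at 249, 232 and 149 CPM in untreated and 131, 134 and 151 in combination libraries, and missed the threshold (adjusted p = 0.0597). Jmjd6 and the repressor Bhlhe40 did not pass.

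Of the genes for oxygen sensing and growth restraint, Ndrg1, a stress-response protein of differentiating cells (chr15:66929318-66969640), stood at 712, 676 and 368 CPM in untreated and 523, 451 and 471 in IFNa libraries. It stood at 534, 582 and 434 CPM in antiPD1 and 234, 289 and 282 in combination libraries, below all 9 others (log2 fold change against untreated -1.13 ± 0.22, adjusted p = 0.0175). Egln3, an oxygen-sensing prolyl hydroxylase that is itself a HIF target, stood at 333, 251 and 292 CPM in untreated, 255, 284 and 293 in IFNa, 303, 217 and 194 in antiPD1 and 162, 188 and 195 in combination libraries. Its combination values lay below the untreated and IFNa values and overlapped the antiPD1 values (-0.69 ± 0.16, adjusted p = 0.0277). Ddit4, an inhibitor of mTORC1 signalling, stood at 371, 114 and 334 CPM in untreated, 269.7, 161 and 175 in IFNa, 276, 251 and 283 in antiPD1 and 137, 132 and 153 in combination libraries. Untreated replicate 2 lay below every other library for Ddit4, the untreated and combination groups overlapped, and it did not pass (adjusted p = 0.0929). Ankrd37 and Tmem45a did not pass in any comparison. Beside these falls, the summed hepatoma markers were lower in the combination libraries than in any untreated library. That sum is carried by Trf, Afp and Alb, and Trf is also on the list of further HIF targets described below. Of the 8 hepatoma markers tested, Afp fell (-0.76 ± 0.14, adjusted p = 0.0159), 0 rose and 7 did not pass, of which Ahsg, Apoa1 and Ttr had positive log2 fold changes. Adult hepatocytes also make Trf, Alb, Apoa1, Ahsg and Ttr. The summed macrophage, leukocyte, neutrophil and Y-linked levels were higher in all 3 combination libraries than in any untreated library. The part of these shifts in the fall of the 9 genes was not tested.

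**Figure D2:**
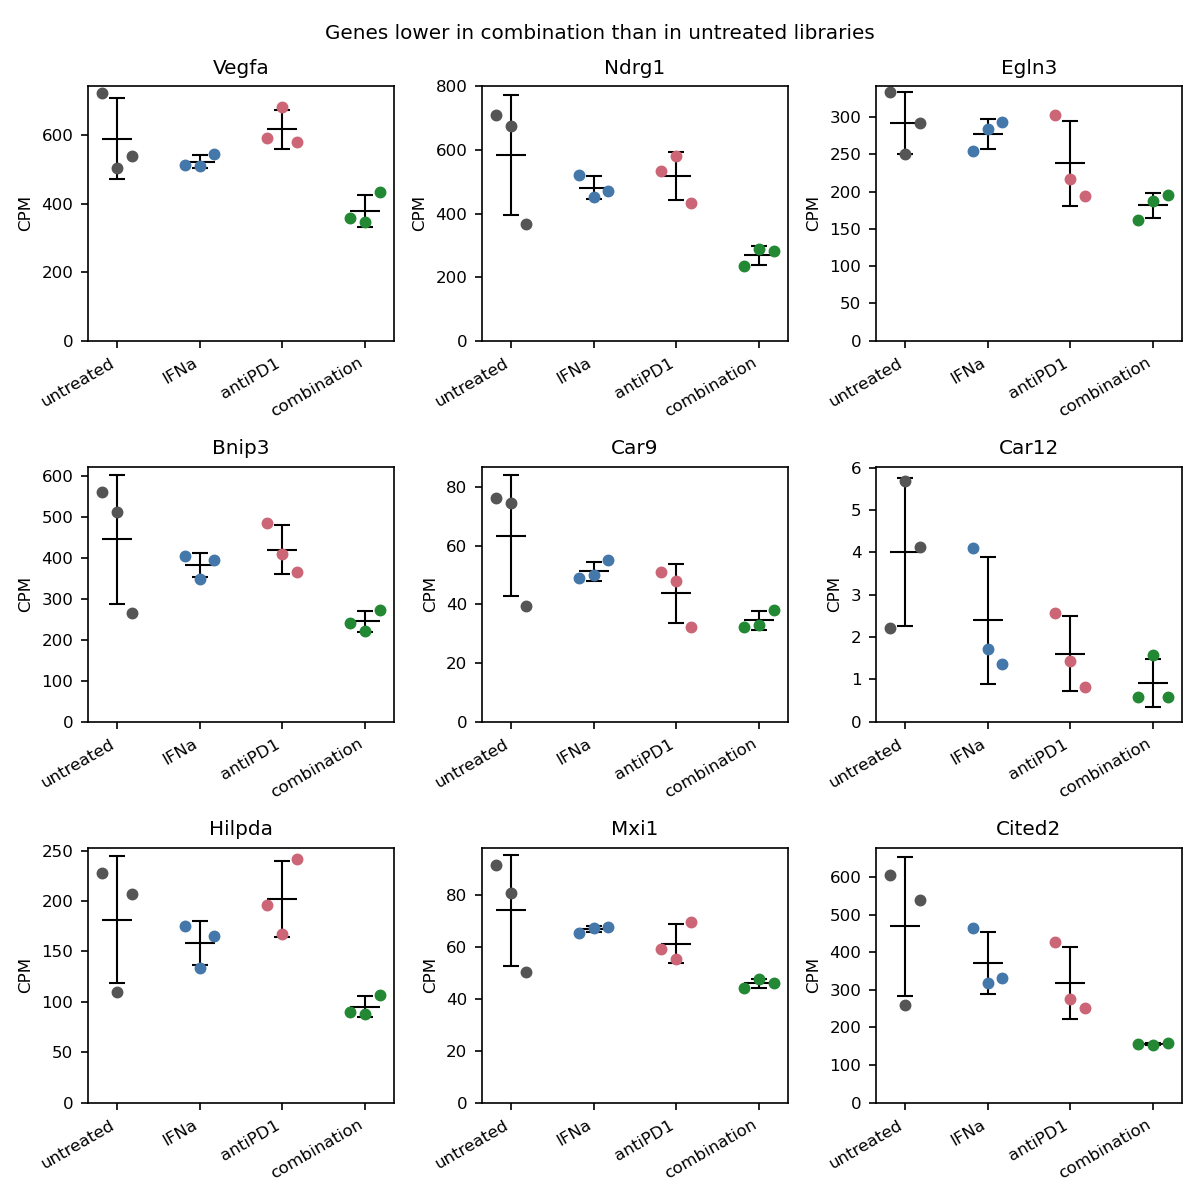
CPM (vertical axes, starting at 0) of genes that fell in the combination group, by group, with 1 point per library and the mean ± SD. The combination values of Vegfa, Cited2, Ndrg1 and Hilpda lie below every other library, while untreated replicate 3 of Bnip3 (267 CPM) lies among the combination values.

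Against untreated libraries 5 of the 34 genes rose in the antiPD1 group, namely P4ha1, Plod2, Angptl4, Bhlhe41 and Stc2, and 0 fell. The 5 are 14.7% of the genes, where 9.76% of all tested genes rose and 14.8% were called in either direction, so the share was near the background. For a fall the background was 5.08%. In 3 genes (8.82%, background 17.5%) the antiPD1 values all lay above the untreated ones and in 0 (background 18.5%) all below, 10 (29.4%) had an unadjusted p under 0.05 against 33.9%, and 13 (38.2%) had a log2 fold change below 0 against 51.3%. The median log2 fold change was 0.12 over the 34 genes and -0.01 over all tested genes, and the former was 0.03 without antiPD1 replicate 1 and 0.27 without untreated replicate 1. Both comparisons use the same 3 untreated libraries.

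The 2 collagen-modifying enzymes that rose act on collagen chains inside the cell. P4ha1, the catalytic subunit of collagen prolyl 4-hydroxylase (chr10:59323296-59373304), stood at 87.4, 90.0 and 83.0 CPM in untreated, 92.8, 89.5 and 93.8 in IFNa, 155, 137 and 145 in antiPD1 and 89.1, 116 and 104 in combination libraries. All 3 antiPD1 values lay above all 9 others, and the untreated and IFNa libraries were close to each other. Its log2 fold change was 0.75 ± 0.10 against untreated (adjusted p = 0.0126) and 0.66 ± 0.10 against IFNa (adjusted p = 0.0441). Plod2, a lysyl hydroxylase that shapes collagen cross-links, stood at 2.30, 1.46 and 4.31 CPM in untreated, 4.38, 4.58 and 4.14 in IFNa, 8.67, 3.85 and 14.6 in antiPD1 and 5.61, 5.99 and 4.69 in combination libraries. Its antiPD1 values spread widely, and replicate 2 lay below untreated replicate 3 (log2 fold change 1.74 ± 0.47, adjusted p = 0.0336). The sister Plod1 missed the threshold (adjusted p = 0.0511), with 20.2, 21.8 and 30.7 CPM in untreated and 54.4, 24.7 and 67.1 in antiPD1 libraries. P4ha2 and the cross-linking oxidases Lox and Loxl2 did not pass.

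Angptl4, a secreted inhibitor of lipoprotein lipase, stood at 12.3, 11.5 and 15.8 CPM in untreated, 21.3, 17.1 and 17.5 in IFNa, 25.9, 13.7 and 40.7 in antiPD1 and 18.6, 18.4 and 15.8 in combination libraries. Antibody replicate 2 lay within the untreated range (log2 fold change 1.02 ± 0.31, adjusted p = 0.0479). Bhlhe41, a clock-linked repressor, stood at 0.486, 0.372 and 2.32 CPM in untreated, 1.41, 1.77 and 1.91 in IFNa, 4.62, 2.19 and 16.1 in antiPD1 and 5.81, 2.73 and 4.14 in combination libraries. Here too antiPD1 replicate 2 fell within the untreated range (2.84 ± 0.81, adjusted p = 0.0394). For Stc2 the ratio of summed counts was 7.65 (95% exact interval 3.96 to 16.5, counting error only), with an adjusted p of 0.0203, and all 3 antiPD1 libraries lay above the untreated ones.

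Replicate 3 of antiPD1 was the highest library for Plod2, Angptl4, Bhlhe41 and Stc2, and not for P4ha1. Without it 1 gene, P4ha1, passed (log2 fold change 0.76, adjusted p = 0.0319), while Plod2 was at 1.22 (adjusted p = 0.137), Bhlhe41 at 1.67 (0.184), Angptl4 at 0.60 (0.188) and Stc2 at 2.63 (0.0545). The same library had the highest summed fibroblast (562 CPM), macrophage (4682 CPM) and adult hepatocyte (5835 CPM) markers of the 12. The summed leukocyte, neutrophil and Y-linked levels were higher in all 3 antiPD1 libraries than in any untreated library. The part of these markers in the rise was not tested. Without untreated replicate 1 or 2 the count of the 34 genes that passed was 0 (5 and 6 genes over the whole table), and without untreated replicate 3 it was 11, of which 8 were higher and 3 lower. It was 2 without combination replicate 2 or 3, and 3 without combination replicate 1, IFNa replicate 2 or IFNa replicate 3.

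**Figure D3:**
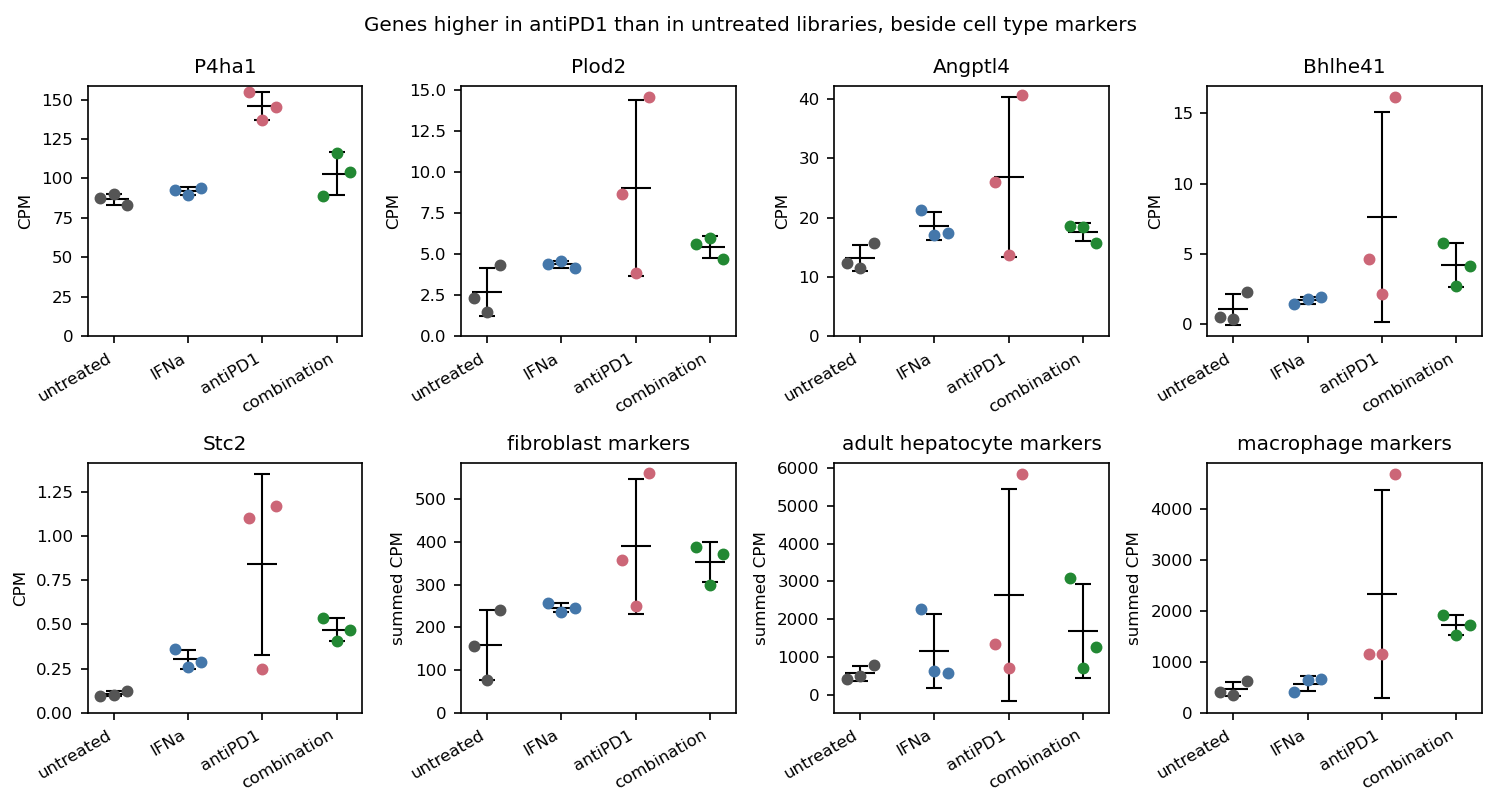
CPM by library (points) with mean ± SD for the 5 genes that rose with antiPD1, and the summed CPM of fibroblast, adult hepatocyte and macrophage markers. P4ha1 has 3 close antiPD1 values (137 to 155 CPM), whereas replicate 3 is the top point for the other 4 genes and for the 3 marker sums.

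Adding interferon to the antibody (combination against antiPD1) gave lower values for 33 of the 34 genes (97.1%), where 53.4% of all tested genes had a log2 fold change below 0. The exception was Ppp1r3c, a glycogen-targeting subunit of protein phosphatase 1. Such a one-sided shift was not particular to the 34 genes. Lower values were also seen for 16 of 16 adult hepatocyte, 9 of 9 leukocyte and T cell and 8 of 8 hepatoma markers. The same held for 9 of 10 macrophage markers and 16 of 17 collagen chains and sister enzymes. Of 7 neutrophil markers 3 were lower, and of 9 pancreatic acinar markers 0. The median log2 fold change was -0.47 over the 34 genes and -0.02 over all tested genes. In 14 of 34 (41.2%) the 3 combination values lay below the 3 antiPD1 values, where 6.66% of all tested genes did so, and in 0 they lay above (background 7.49%). The 14 were Vegfa, Ndrg1, P4ha1, Ankrd37, Bnip3, Bnip3l, Adm, Ddit4, Mxi1, Bhlhe40, Ak4, Fam162a, Hilpda and Cited2. Gene by gene, however, 0 of the 34 passed after adjustment with edgeR, as did 0% of all tested genes, while 13 of 34 (38.2%) had an unadjusted p under 0.05 against 4.76% of all genes. DESeq2 called 4 of them, all lower (Vegfa, Ndrg1, P4ha1 and Hilpda), and limma on log2 FPKM called 0.

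The 3 smallest unadjusted p-values in that comparison belonged to P4ha1 (log2 fold change -0.50 ± 0.10, adjusted p = 0.961), Vegfa (-0.70 ± 0.14, adjusted p = 0.961) and Hilpda (-1.09 ± 0.24, adjusted p = 0.991). Their values by library are given above, and for each of the 3 genes the groups did not overlap. The combination values of P4ha1 overlapped the untreated ones. For Vegfa and Hilpda it was the antiPD1 values that overlapped the untreated ones. Leaving out antiPD1 replicate 3 left 30 of 34 genes lower, and over the 12 fits that left out 1 library each the number ranged from 30 to 33. Ppp1r3c stood at 74.8, 32.8 and 85.9 CPM in untreated, 11, 38.2 and 40.1 in IFNa, 52.6, 50.8 and 56.8 in antiPD1 and 75.2, 71.8 and 55.4 in combination libraries.

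**Figure D4:**
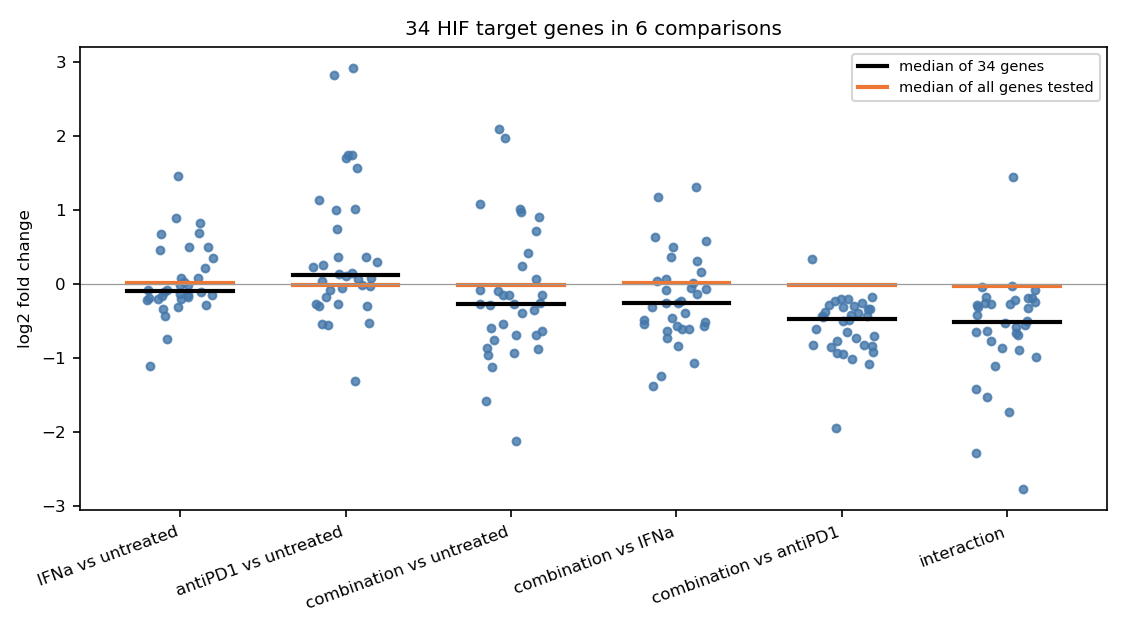
Log2 fold change (vertical axis) of each of the 34 genes (points) in 6 comparisons, the last of which is the interaction described below. The comparison of antiPD1 with IFNa is not drawn. Black lines give the median of the 34 genes and orange lines the median of all tested genes. The medians of the 34 genes are -0.47 for combination against antiPD1 and -0.27 for combination against untreated. Those of all tested genes stay within 0.02 of 0 in the pairwise comparisons, and that of the interaction is -0.03.

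Whether the log2 change with both agents differed from the sum of the 2 separate changes was examined with the interaction term. It was below 0 for 33 of 34 genes (97.1%, against 54.1% of all tested genes), with a median of -0.52 against -0.03, and Ppp1r3c was again the exception. Other lists were as one-sided, with 9 of 9 fibroblast, 9 of 9 endothelial, 9 of 9 leukocyte and 10 of 10 macrophage markers below 0. Of 9 pancreatic acinar markers, 0 were below 0. With edgeR 0 of the 34 passed, as did 0% of all genes, and 8 (23.5%) had an unadjusted p under 0.05 against 6.06%. DESeq2 called 1 (P4ha1) and limma 0. The smallest p was that of P4ha1 (-0.59 ± 0.14, adjusted p = 0.443). Adm, a vasodilator peptide, came near the top (-2.77, adjusted p = 0.799), with 2.17, 1.32 and 6.63 CPM in untreated, 11.6, 2.75 and 3.62 in IFNa, 12.3, 3.52 and 17.2 in antiPD1 and 2.65, 3.34 and 2.51 in combination libraries. For Adm, IFNa replicate 1 stood above its group, and without it the term was -1.87. The interaction uses all 12 libraries, including those of the comparison of combination with antiPD1, so the 2 counts of 33 are not separate evidence.

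**Figure D5:**
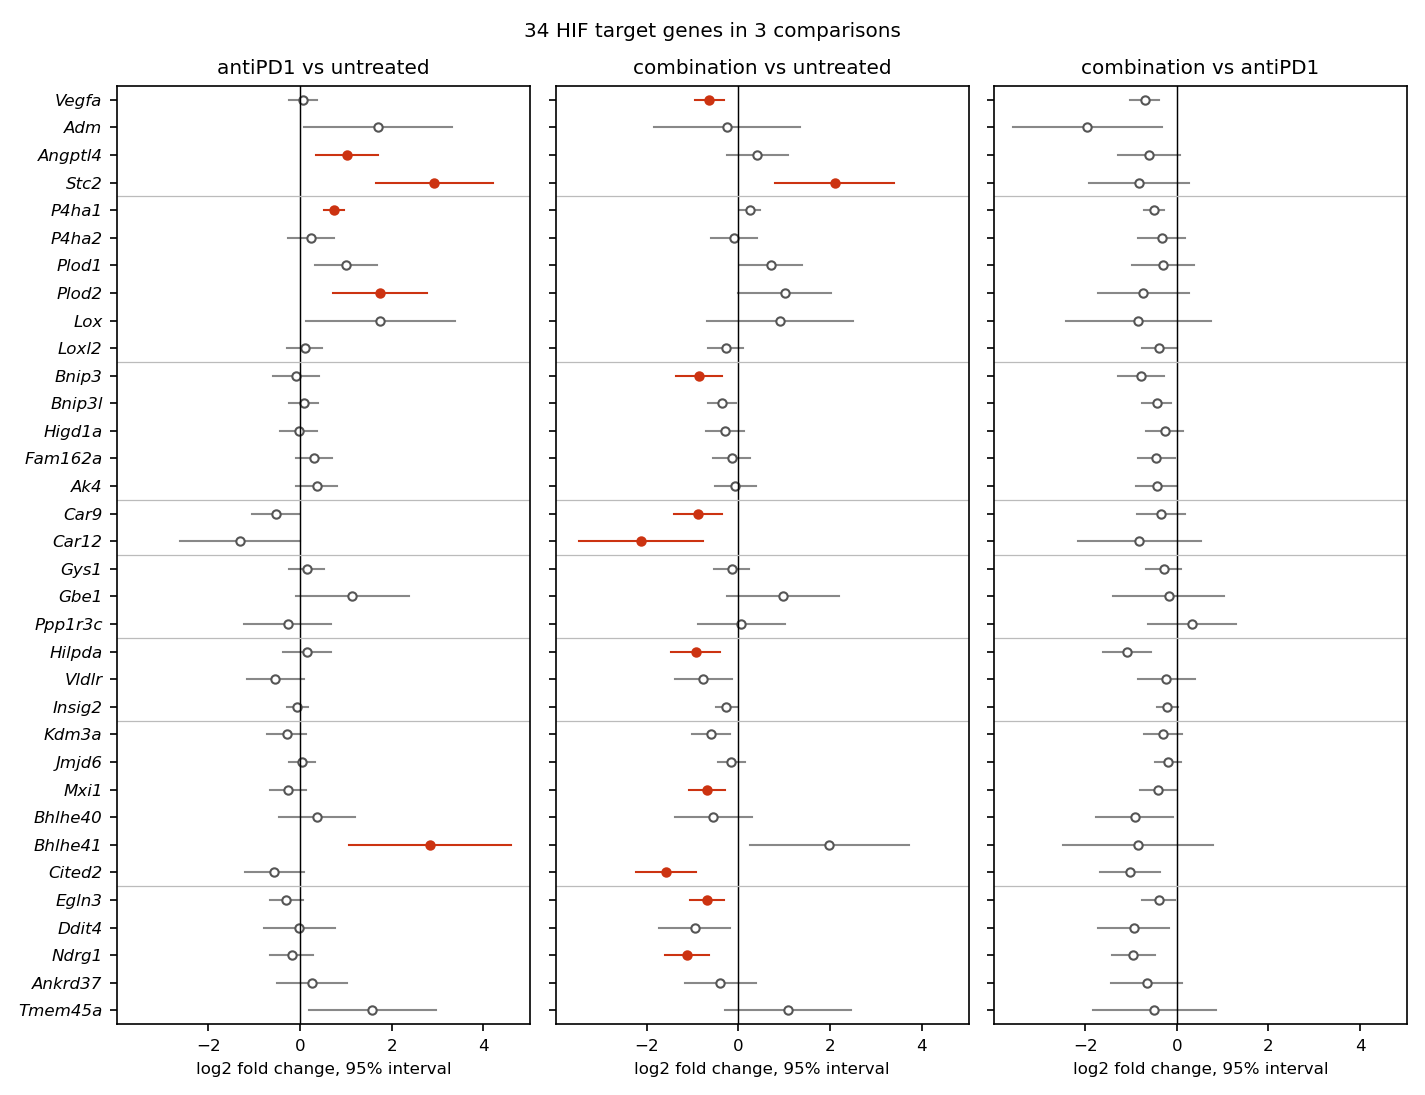
Log2 fold change (horizontal axis) with its 95% interval for the 34 genes (rows) in 3 comparisons, with filled red points for an adjusted p under 0.05. In the middle panel 9 red points lie left of 0 and Stc2 lies right of it, in the left panel 5 lie right of 0, and the right panel has 33 points left of 0 and no red point.

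With interferon alone, no gene of the list was called. Against untreated libraries 0 of the 34 passed with edgeR, DESeq2 or limma, as did 0% of all tested genes with edgeR. An unadjusted p under 0.05 was seen for 2 genes (5.88%, against 5.59% of all genes). The median log2 fold change was -0.09, against 0.01 over all genes, and without untreated replicate 1 it was 0.04. The values of the 2 groups did not overlap in 2 genes (5.88%), Stc2 and Angptl4, both higher with IFNa (background 4.96%), and lay lower in 0 (background 5.22%). The log2 fold change was below 0 for 21 of 34 (61.8%, background 48.2%), and for 13 without untreated replicate 1. The 2 smallest p-values were those of Ppp1r3c (-1.12 ± 0.44, adjusted p = 0.881) and Stc2 (adjusted p = 0.885). For Stc2 the ratio of summed counts was 2.80 (95% exact interval 1.34 to 6.39, counting error only). The low value of 11 CPM for Ppp1r3c came from IFNa replicate 1, and without it the log2 fold change was -0.72. Angptl4 was next (0.50 ± 0.31, adjusted p = 0.885).

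Adding the antibody to interferon (combination against IFNa) gave 15 of 34 genes (44.1%) whose 3 combination values lay below the 3 IFNa values, where 16.4% of all tested genes did so. They included Vegfa, Ndrg1, Egln3, Bnip3, Car9, Hilpda, Mxi1 and Cited2, which also fell against untreated. In 5 genes (14.7%, background 20.3%) the combination values lay above, namely Plod2, Bhlhe41, Ppp1r3c, Stc2 and Tmem45a. The log2 fold change was below 0 for 23 of 34 (67.6%, background 47.9%), with a median of -0.25 against 0.02 over all genes. After adjustment 0 of 34 passed with edgeR (0.956% of all genes did, 0.342% higher and 0.614% lower), 12 (35.3%) had an unadjusted p under 0.05 against 23.1%, DESeq2 called 6 and limma 0. The smallest p-values were those of Cited2 (-1.25 ± 0.30, adjusted p = 0.0686), Ndrg1 (-0.85 ± 0.22, adjusted p = 0.0766) and Egln3 (-0.61 ± 0.16, adjusted p = 0.0819). Fitted on these 2 groups alone, 9 genes passed, and in the fit to all groups without antiPD1 replicate 3, 3 passed (Ndrg1, Egln3 and Cited2). Without untreated replicate 3 there were also 3 (Ndrg1, Bnip3 and Mxi1). Between the single agents, P4ha1 alone of the 34 passed (2.94%, where 0.0488% of all genes rose, 0.0558% fell and 0.105% were called), and DESeq2 called Bhlhe41 as well. The antiPD1 values lay above the IFNa values in 5 genes (14.7%, background 12.4%) and below in 0 (background 9.57%), 5 (14.7%) had an unadjusted p under 0.05 against 22.6%, and 10 (29.4%) had a log2 fold change below 0 against 49%. That call of P4ha1 was kept in 2 of the 12 fits that left out a library.

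The glycogen genes Gys1, Gbe1 and Ppp1r3c did not pass in any comparison. For Ankrd37, Fam162a, Jmjd6 and Gys1 the annotated gene overlaps another gene of the count table (Ufsp2 and Lrp2bp, Wdr5b, Mettl23 and Ruvbl2), and since no label gives the strand setting of the counting, their levels may include reads of the neighbour. None of these 4 genes passed.

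The other genes of the pathway were read from lists that were likewise drawn up with earlier results of these data known. Beside their counts, 5% of all tested genes fell and 7.58% rose with the combination, and 5.08% fell and 9.76% rose with antiPD1. Of 21 glycolytic HIF targets, 3 fell and 0 rose in the combination group against untreated. They were the glucose transporter Slc2a1 (-0.96 ± 0.18, adjusted p = 0.0162), lactate dehydrogenase Ldha (-0.45 ± 0.11, adjusted p = 0.0327) and glucose phosphate isomerase Gpi1 (-0.54 ± 0.15, adjusted p = 0.0417). Slc2a1 stood at 501, 477 and 303 CPM in untreated, 422, 326 and 332 in IFNa, 376, 370.0 and 381 in antiPD1 and 204, 206 and 250.1 in combination libraries, so all combination values were lowest. With antiPD1, 1 of the 21 rose, the lactate exporter Slc16a3 (2.18 ± 0.43, adjusted p = 0.0199). Against antiPD1, 20 of 21 had lower values in the combination (median -0.32), where 53.4% of all tested genes did, and 0 passed, with 9 at an unadjusted p under 0.05 (4.76% of all tested genes).

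Of 8 tested HIF subunits and oxygen sensors, 1 fell with the combination, Epas1, the alpha subunit of HIF-2 (-0.67 ± 0.14, adjusted p = 0.0190). Epas1 stood at 270.4, 318 and 306 CPM in untreated, 329.7, 308 and 240.5 in IFNa, 240.0, 189.9 and 230.2 in antiPD1 and 203, 190.0 and 167 in combination libraries, so the untreated values lay above those of both antibody groups. Arnt2 fell with antiPD1 (-1.80 ± 0.38, adjusted p = 0.0208). Hif1a, whose protein is controlled mainly by degradation, stood at 218, 239 and 221 CPM in untreated and 201, 198 and 235 in combination libraries, which overlapped, and did not pass.

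Of 23 further HIF targets tested, 6 fell and 3 rose in the combination group. Among those that fell were the growth factor carriers Igfbp1 (-1.33 ± 0.17, adjusted p = 0.00760) and Igfbp3 (-1.18 ± 0.20, adjusted p = 0.0134). Against IFNa, 4 of the 23 fell, where 0.614% of all tested genes did, among them Igfbp1 (-1.17 ± 0.17, adjusted p = 0.0185) and Igfbp3 (-1.12 ± 0.20, adjusted p = 0.0352). With antiPD1 alone 4 rose and 3 fell, led by the transferrin receptor Tfrc (-1.09 ± 0.19, adjusted p = 0.0191), the inducible nitric oxide synthase Nos2 (4.82 ± 0.91, adjusted p = 0.0198) and heme oxygenase Hmox1 (1.89 ± 0.36, adjusted p = 0.0198). Nos2 stood at 2.11, 1.62 and 2.99 CPM in untreated and 22.7, 11.4 and 157 in antiPD1 libraries, and Hmox1 at 62.8, 61.2 and 92.1 and at 189, 152 and 461 CPM. All antiPD1 values lay above the untreated ones, with replicate 3 far above the other 2. Without antiPD1 replicate 3 the log2 fold change was 2.93 for Nos2 (adjusted p = 0.0326), 1.26 for Hmox1 (adjusted p = 0.0326) and -0.97 for Tfrc (adjusted p = 0.0497). Nos2 and Hmox1 are also genes of macrophages, whose summed markers were higher in both antibody groups. The part of those cells was not tested.

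Among 13 partners of Vegfa and Adm, the VEGF coreceptor Nrp2 rose with antiPD1 (0.91 ± 0.26, adjusted p = 0.0383) and with the combination (0.98 ± 0.26, adjusted p = 0.0355). Calcrl, the receptor of adrenomedullin, fell in both (-1.39 ± 0.29, adjusted p = 0.0207, and -1.34 ± 0.29, adjusted p = 0.0228). Calcrl stood at 99.5, 55.2 and 41.7 CPM in untreated, 26.2, 39 and 37.6 in IFNa, 26.3, 22.9 and 25.7 in antiPD1 and 31.3, 26.3 and 20.1 in combination libraries. Untreated values were therefore the highest, replicate 1 most of all. The VEGF receptors Kdr and Flt1 did not pass. Of 17 collagen chains and sister enzymes of the collagen-modifying group, 7 rose with antiPD1, led by the lysyl oxidase relative Loxl3 (2.11 ± 0.42, adjusted p = 0.0203), Col6a1 (1.45 ± 0.36, adjusted p = 0.0280) and Col6a2 (1.44 ± 0.39, adjusted p = 0.0349). In the combination 1 rose, Loxl3 (1.76 ± 0.41, adjusted p = 0.0272). The summed fibroblast markers of antiPD1 (249 to 562 CPM) and combination libraries (300.3 to 389 CPM) lay above those of untreated libraries (77.3 to 241 CPM), and their part in the rise of collagen genes was not tested. Without antiPD1 replicate 3, Loxl3 was at 1.61 (adjusted p = 0.0542), Col6a1 at 1.06 (0.103) and Col6a2 at 1.01 (0.142).

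The calls in these further lists depended on single libraries as well. Of 18 calls for antiPD1 against untreated, 4 were kept without antiPD1 replicate 3 (Nos2, Hmox1, Slc16a3 and Tfrc), 0 without untreated replicate 1 or 2, and 10 to 18 without any other library. Of 16 calls for combination against untreated, 2 were kept without untreated replicate 1 or 2, 1 to 3 without a combination library, and 11 to 16 without any other. Of 4 calls for combination against IFNa, 0 were kept without a combination library, 1 without IFNa replicate 3, and 3 to 4 without any other.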

How the data were processed

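RNA-seq libraries (12, 3 per group) were made with standard Illumina kits, per the labels. The authors deposited raw counts per gene and FPKM values per gene. The submitters' processing notes name HISAT2 2.1.0, HTSeq, Cufflinks and mm10; for the annotation, strand setting and role of each tool, nothing is given in the sources used here. Counts were filtered (filterByExpr, minimum count 10), scaled by TMM and tested with edgeR 4.0.16 (quasi-likelihood F test, robust, 1 mean per group over all 12 libraries) under R 4.3.3 in 6 pairwise comparisons and the interaction, with Benjamini-Hochberg adjustment over 14330 genes and a threshold of 0.05. Scripts were tested on simulated data. The alternatives were other normalization and filtering, DESeq2 1.42.0, limma 3.58.1 on log2 values of the deposited FPKM (pseudocount 1 or 0.1), a replicate block, and left-out libraries. No pair of libraries agreed within sampling noise. The genes and lists were chosen with earlier results of these data known. Values per library are given for every gene that passed, otherwise for the 3 smallest p-values of a comparison, and for 8 genes standing for their role. Genes of other lists are named up to 3 per list and comparison, and 1 gene of these lists is not reported here. Gene positions are from GENCODE M21 (mm10), and promoters are from RefSeq (GRCm38.p6).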

Additional observations from a re-analysis of the deposited data

How the results depend on the processing

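Over 609 alternative values of the 30 named log2 fold changes, 451 kept direction and side of the threshold, 140 lost the threshold, 18 gained it and 0 changed sign. Only changes that passed in the fit described above could lose the threshold, and the 451 also hold changes that never passed. For the changes that passed, calls were kept in 2 to 10 of the 12 fits that left out 1 library. Both ends were P4ha1, at 2 for antiPD1 against IFNa and 10 for antiPD1 against untreated. For combination against untreated (10 genes called), limma on log2(FPKM + 1) called 3, limma with a pseudocount of 0.1 called 3 and limma with no filter called 2, and leaving out 1 library gave 0 to 12. DESeq2 called 14 and the fit to these 2 groups alone 9. For antiPD1 against untreated (5 called), the 2 groups alone gave 0, limma with a pseudocount of 1 or 0.1 gave 2, limma with no filter gave 1, the fit without IFNa replicate 1 and antiPD1 replicate 3 together gave 2, and leaving out 1 library gave 0 to 11, while DESeq2 called 7. For combination against antiPD1 (0 called), DESeq2 called 4 and leaving out 1 library 0. For combination against IFNa (0 called), DESeq2 called 6, the 2 groups alone 9, the fit without both of those libraries 1, and leaving out 1 library 0 to 3. For antiPD1 against IFNa (1 called), DESeq2 called 2, and 0 were called with no filter on low counts, with the 2 groups alone, in each of the 3 limma fits and without both libraries, with 0 to 1 when 1 library was left out. For the interaction (0 called), DESeq2 called 1, and it cannot be fitted on 2 groups alone. Replicate numbers did not pair the libraries (same-number correlations -0.30 to 0.50, 8 of 18 over 0.1, and 1 of 12 libraries closest to its own number); with the replicate block, 12 genes were called for combination against untreated, 7 for antiPD1 against untreated and 1, Cited2, for combination against IFNa. The cause of these differences was not tested. Depth limits Stc2, at 3 to 4 counts in untreated libraries.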

Other observations

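The 34 genes did not vary as 1 unit among the untreated libraries. Replicate 3 had the lowest untreated value of Bnip3 (267 CPM, against 560.2 and 511), Ndrg1 (368 against 712 and 676), Car9 (39.6 against 76.5 and 74.5), Kdm3a (149 against 249 and 232) and Mxi1 (50.1 against 91.3 and 80.5). Replicate 2 had the lowest untreated value of Ddit4 (114 CPM, against 371 and 334), Cited2 (259.7 against 606 and 539), Hilpda (109.6 against 228 and 207), Bhlhe40 (107 against 233 and 290.3), Ankrd37 (6.43 against 18.8 and 19.3) and Ppp1r3c (32.8 against 74.8 and 85.9). These genes were picked after their values were seen. Untreated replicate 1 held the highest of the 12 values for 11 of the 34 genes (13.9% of all tested genes), antiPD1 replicate 1 for 9 (3.88%) and antiPD1 replicate 3 for 11 (25.6%), while no IFNa or combination library held the highest value of any of them. The lowest value lay in combination replicates 1, 2 and 3 for 6, 6 and 2 of the 34 genes (4.58%, 3.94% and 5.17% of all tested genes), and in untreated replicate 2 for 8 (10.6%).

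The lowest and highest summed marker levels over the 12 libraries were as follows for other cell types: red cells (29.8 to 508.3 CPM), adipocytes (28.6 to 240.5), skeletal muscle (0.917 to 2.66), acinar cells (15.6 to 98.0) and squamous epithelium (268.5 to 689). Single genes carried several of these sums, which therefore do not show such cells in every library. Dsp made up most of the squamous sum (264 to 676 CPM). Fabp4 and Pck1, the latter also a hepatocyte marker, carried the adipocyte sum, while Adipoq and Plin1 had at most 2 counts and Lep 0. Of the acinar genes, Cela1 was present throughout (14.9 to 37.2 CPM), and Cpb1 was above trace levels only in untreated replicates 2 and 3 and combination replicates 1 and 2.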
